A study of Mus musculus with 10 samples.

Results

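The R-spondin module of Wnt signaling comprises 9 genes, *Rspo1*, *Rspo2*, *Rspo3*, *Rspo4*, *Lgr4*, *Lgr5*, *Lgr6*, *Znrf3* and *Rnf43*. They were taken by name from the 55487 genes counted in mouse mammary gland RNA, whatever their values, and all 9 were present in the count tables. R-spondins are secreted proteins that bind the receptors Lgr4, Lgr5 and Lgr6 on the cell surface. The bound complex holds Znrf3 and Rnf43, transmembrane E3 ubiquitin ligases that otherwise remove Frizzled and Lrp receptors from the membrane, and cells then respond more strongly to Wnt ligands. *Znrf3* and *Rnf43* are themselves Wnt target genes, and in the mammary gland Rspo1 is known as a product of luminal cells and Lgr5 and Lgr6 as markers of subsets of epithelial cells, Lgr5 largely of basal cells.

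RNA was sequenced from mammary epithelial cells (MECs) and from macrophages of 10-wk-old female mice in diestrus, on a BALB/c background. All mice carried *Cebpb* fl/fl, a conditional allele of the transcription factor C/EBPβ. Mice without Cre served as wild-type (WT) controls, and *Cebpb*ΔM mice, labeled as C/EBPb knockdown, carried a *Csf1r*-driven Cre, which deletes the allele in macrophages and other myeloid cells and is not directed at epithelial cells. MECs, purified by removing cells of other lineages, gave libraries 1 and 3 of either genotype, and the macrophage libraries, enriched by positive selection for F4/80, were WT 4 and 5 and *Cebpb*ΔM 4, 5, 6 and 7. The labels do not say whether the libraries of a group came from separate mice, so P-values measure the spread between these libraries, which may be technical.

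Each of the 4 MEC libraries held 25310926 to 27008166 counts and each of the 6 macrophage libraries 16935000 to 20174722. Levels are counts scaled to library size (CPM) by trimmed mean of M-values (TMM) over all 10 libraries, and 3 counts in a library, taken as the floor of detection, corresponded to 0.117 to 0.18 CPM. *Cebpb* itself was too weakly counted to check the genotype labels. It had 13 and 15 counts in the libraries labeled WT macrophage and 16, 13, 5 and 4 counts in those labeled *Cebpb*ΔM 4 to 7, and the groups overlapped. In MECs it had 25 and 28 counts in WT and 69 and 42 in *Cebpb*ΔM. *Cebpb* shares 312 nt of its exon with *Tmem189* on the opposite strand.

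No exon of *Rspo1*, *Lgr4*, *Lgr5*, *Lgr6*, *Znrf3* or *Rnf43* overlapped an exon of another counted gene. The labeled cell types were checked against fixed marker lists. The 11 macrophage markers, among them *Adgre1*, which encodes F4/80, reached a sum of 3796 to 9094 CPM in the macrophage libraries against 31.6 to 47.0 CPM in MECs, where *Adgre1* had 0 counts in 2 of the 4 libraries. The 10 pan-epithelial markers summed to between 30975 and 38506 CPM in MECs but still to between 5520 and 10430 CPM in the macrophage libraries. The 10 basal markers summed to between 6558 and 8169 CPM in MECs and to between 842 and 3471 CPM in the macrophage libraries, and no pan-epithelial or basal marker was at 0 counts in any library. The 10 fibroblast markers summed to between 5327 and 6533 CPM in MECs and to between 3513 and 7906 CPM in the macrophage libraries. The values below from macrophage libraries are therefore values of libraries that also held epithelial transcripts. Libraries of both cell types, MECs included, also held transcripts of fibroblast markers. The part of all these transcripts in each result was not tested.

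Of the 6 members above the count filter, *Rspo1* and *Lgr6* had the highest levels in *Cebpb*ΔM MECs relative to WT, and their start sites, with that of *Lgr4*, the most abundant receptor in WT, are shown first. The sequences are the 250 bases before the RefSeq start on GRCm38.p6, read 5′ to 3′ on the gene's own strand, and capitals mark a match to the C/EBP motif TTGCNNAA.
*Rspo1*, chr4:124986180-124986429, plus strand: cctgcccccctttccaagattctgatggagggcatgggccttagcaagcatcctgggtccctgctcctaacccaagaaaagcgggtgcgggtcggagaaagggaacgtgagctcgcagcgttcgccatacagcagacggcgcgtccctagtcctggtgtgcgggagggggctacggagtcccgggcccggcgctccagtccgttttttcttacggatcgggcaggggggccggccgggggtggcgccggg
*Lgr6*, chr1:135105277-135105526, minus strand: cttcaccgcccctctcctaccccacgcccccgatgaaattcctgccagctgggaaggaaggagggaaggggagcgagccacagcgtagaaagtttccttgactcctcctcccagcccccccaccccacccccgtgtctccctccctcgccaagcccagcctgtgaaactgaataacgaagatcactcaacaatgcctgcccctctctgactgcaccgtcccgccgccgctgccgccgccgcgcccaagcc
*Lgr4*, chr2:109917397-109917646, plus strand: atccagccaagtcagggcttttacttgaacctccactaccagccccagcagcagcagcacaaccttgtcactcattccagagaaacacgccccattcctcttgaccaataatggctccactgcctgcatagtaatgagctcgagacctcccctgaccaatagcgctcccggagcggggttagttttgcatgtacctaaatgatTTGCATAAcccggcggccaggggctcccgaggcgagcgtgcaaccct
Promoter entries matched 5 of the 9 members, with 6 windows in all because *Rnf43* has a pair of starts. The windows were searched on both strands for TTGCNNAA (C/EBP), CTTTGAT (TCF/LEF, the factors that partner β-catenin) and ACANNNTGT (the core bound by the progesterone receptor). Matches to these motifs occurred in 9.56%, 3.21% and 5.84% of all 32851 promoter windows. The *Lgr4* window held 1 C/EBP match, which begins 47 bases before the start. The windows of *Rspo1*, *Lgr6*, *Rspo4* and *Rnf43* held no match to any of the 3 motifs. The *Rspo1* and *Lgr6* windows were rich in GC, at 66.8% and 65.2% against a median of 52.4% over all windows, and held 22 and 16 CpG dinucleotides against a median of 6. That of *Lgr4* had 55.6% GC and 10 CpG.

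Among the ligands, *Rspo1* was the only R-spondin gene above 1 CPM in MECs or in WT macrophage libraries. *Rspo1* (ENSMUSG00000028871, chromosome 4, 124986430 to 125009099, GRCm38) was measured at 6.11 and 6.58 CPM in WT MECs and at 12.9 and 12.2 CPM in *Cebpb*ΔM MECs. In the macrophage libraries it was at 4.46 and 4.76 CPM in WT and at 21.5, 5.84, 2.99 and 5.83 CPM in *Cebpb*ΔM 4 to 7. The MEC genotypes did not overlap, and *Cebpb*ΔM macrophage library 4 held more *Rspo1* than any other of the 10 libraries.

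*Rspo2* (chromosome 15), *Rspo3* (chromosome 10) and *Rspo4* (chromosome 2), the other R-spondin ligands, were at or near the floor. *Rspo2* had 2 and 0 counts in WT MECs, 2 and 3 in *Cebpb*ΔM MECs, 0 and 0 in WT macrophage libraries and 0, 2, 0 and 15 in *Cebpb*ΔM macrophage libraries 4 to 7. *Rspo3* had 6 and 0 counts in WT MECs, 4 and 2 in *Cebpb*ΔM MECs and 0 counts in every macrophage library except *Cebpb*ΔM 7, which had 27. *Rspo4* had 6 and 0 counts in WT MECs, 0 and 1 in *Cebpb*ΔM MECs and 0 counts in all 6 macrophage libraries. The counts of *Rspo2* and *Rspo3* in the macrophage libraries thus came almost entirely from *Cebpb*ΔM 7, at 0.901 and 1.62 CPM. The 10 fibroblast markers summed to 5901 CPM in that library, within the range of 3513 to 7906 CPM of all macrophage libraries. Of these markers, 3 were highest there among the 6 and 4 in *Cebpb*ΔM 5, which had the highest sum. *Cebpb*ΔM 5 had 2 counts of *Rspo2* and 0 of *Rspo3*. Which cells gave the *Rspo2* and *Rspo3* counts of *Cebpb*ΔM 7 was not tested. Exons of *Rspo3* overlap those of *Gm48159*, on the opposite strand, by 404 nt, and *Gm48159* had at most 4 counts in any library. None of these 3 genes passed the filter of over 1 CPM in at least 2 libraries, and no fold change is given for them.

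**Figure D1:**
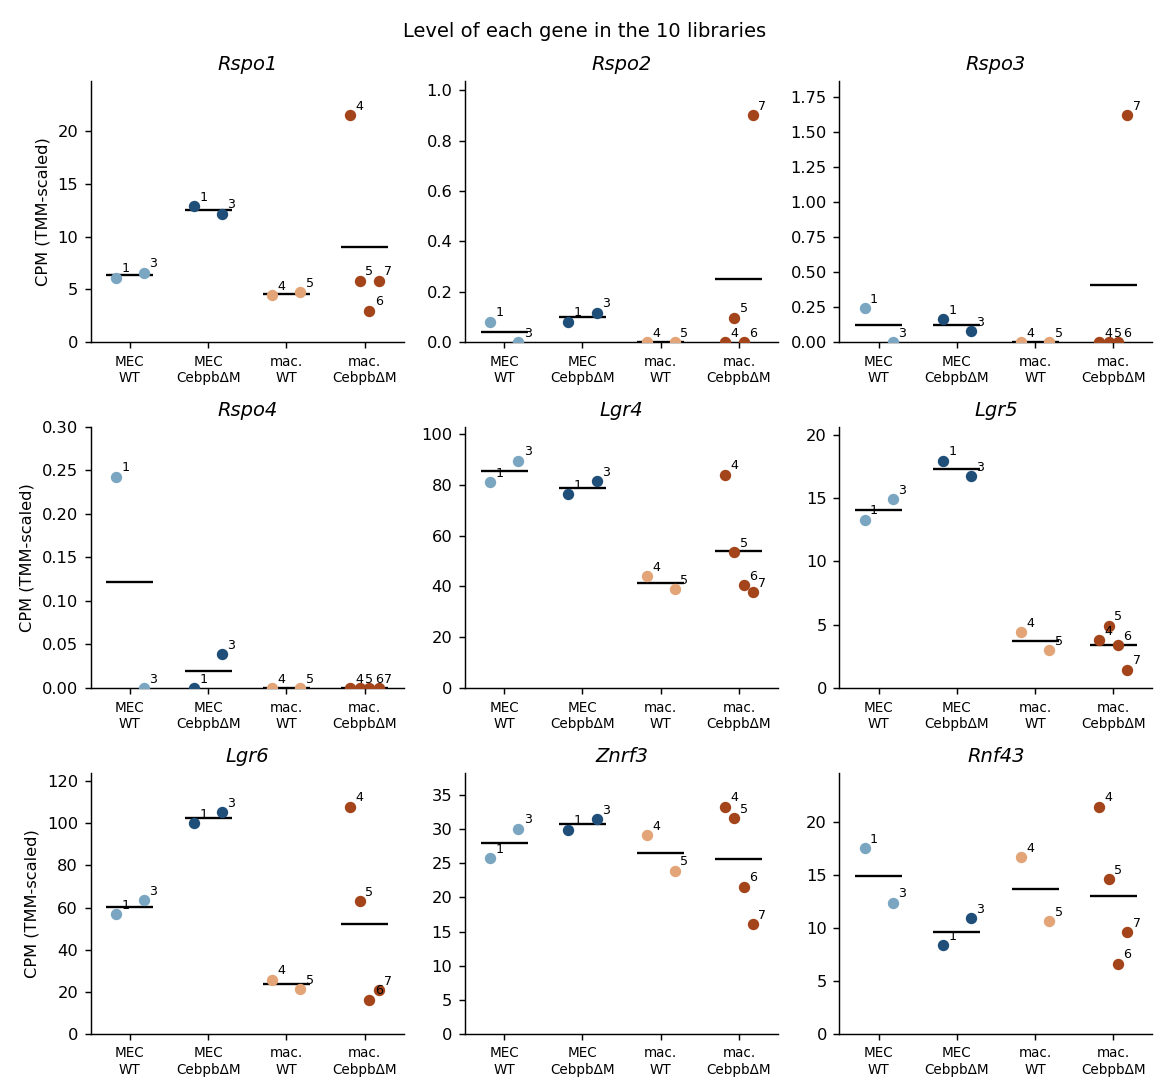
Level of each R-spondin module gene (TMM-scaled CPM, vertical axis from 0, scaled separately in each panel) in WT and CebpbΔM MECs and macrophage libraries (mac.). Each point is 1 library with its replicate number and each bar is the group mean. Of the 6 members above the count filter, Rspo1, Lgr5, Lgr6 and Rnf43 do not overlap between the MEC genotypes, against 28.2% of all genes tested. Macrophage libraries 4 and 7 of CebpbΔM hold the high values of Rspo1, Rspo2 and Rspo3.

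Of the receptors, *Lgr4*, the most broadly expressed member of the family, and *Lgr6* were the more abundant and *Lgr5*, a marker of stem cells in several epithelia, the least abundant. *Lgr4* (ENSMUSG00000050199, chromosome 2, 109917647 to 110014257) was at 81.2 and 89.5 CPM in WT MECs and at 76.4 and 81.5 CPM in *Cebpb*ΔM MECs. It was at 44.0 and 38.9 CPM in WT macrophage libraries and at 84.1, 53.4, 40.4 and 37.7 CPM in *Cebpb*ΔM 4 to 7. The genotypes overlapped in both cell types, and *Cebpb*ΔM macrophage library 4 reached the level of MECs.

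*Lgr6* (ENSMUSG00000042793, chromosome 1, 134983301 to 135105276) was at 56.9 and 63.5 CPM in WT MECs and at 100.1 and 105.4 CPM in *Cebpb*ΔM MECs. It was at 25.6 and 21.2 CPM in WT macrophage libraries and at 107.9, 63.0, 16.2 and 20.6 CPM in *Cebpb*ΔM 4 to 7. The MEC genotypes did not overlap. In the macrophage libraries, *Cebpb*ΔM 4 and 5 lay above both WT libraries and *Cebpb*ΔM 6 and 7 below both.

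*Lgr5* (ENSMUSG00000020140, chromosome 10, 115450311 to 115587780) was at 13.3 and 14.9 CPM in WT MECs and at 17.9 and 16.7 CPM in *Cebpb*ΔM MECs. It was at 4.41 and 2.999 CPM in WT macrophage libraries and at 3.77, 4.92, 3.36 and 1.44 CPM in *Cebpb*ΔM 4 to 7. *Lgr5* was the only tested member whose MEC libraries all lay above all macrophage libraries.

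The E3 ligases were both counted in every library. *Znrf3* (ENSMUSG00000041961, chromosome 11, 5276324 to 5444847) was at 25.8 and 30.1 CPM in WT MECs and at 30.0 and 31.5 CPM in *Cebpb*ΔM MECs. In macrophage libraries it was at 29.1 and 23.9 CPM in WT and at 33.3, 31.6, 21.5 and 16.0 CPM in *Cebpb*ΔM 4 to 7. The genotypes of *Znrf3* overlapped in both cell types.

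*Rnf43* (ENSMUSG00000034177, chromosome 11, 87662722 to 87735539) was at 17.6 and 12.4 CPM in WT MECs and at 8.38 and 10.95 CPM in *Cebpb*ΔM MECs. It was at 16.7 and 10.7 CPM in WT macrophage libraries and at 21.5, 14.6, 6.62 and 9.61 CPM in *Cebpb*ΔM 4 to 7. The MEC genotypes did not overlap, with WT higher, and the macrophage genotypes did.

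To compare levels between genes, CPM was divided by exon length in kb. In WT MECs the order was *Lgr4* (14.5 ± 0.997 CPM per kb, SD, n = 2), *Lgr6* (8.79 ± 0.682), *Znrf3* (3.54 ± 0.388), *Rspo1* (3.27 ± 0.172), *Rnf43* (2.28 ± 0.557) and *Lgr5* (1.37 ± 0.113), and only *Znrf3* and *Rspo1* overlapped as neighbours. In *Cebpb*ΔM MECs *Lgr6* (14.996 ± 0.554 CPM per kb) stood above *Lgr4* (13.4 ± 0.608) and *Rspo1* (6.47 ± 0.252) above *Znrf3* (3.89 ± 0.134), without overlap in either pair. In WT macrophage libraries *Lgr4* (7.05 ± 0.618 CPM per kb) was again first and *Lgr5* (0.361 ± 0.0975) the lowest of the tested members, whereas *Lgr6* (3.42 ± 0.454) and *Znrf3* (3.36 ± 0.4656) overlapped, as did *Rspo1* (2.38 ± 0.108) and *Rnf43* (2.09 ± 0.651). In the 4 *Cebpb*ΔM macrophage libraries each of the first 5 members overlapped the next in the order except *Rnf43*, which lay above *Lgr5*. Among the 15698 genes tested in MECs, the WT level per length of *Lgr4* was at the percentile 76.8, that of *Lgr6* at 66.4 and that of *Lgr5* at 24.3.

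Whether loss of C/EBPβ in macrophages alters this module in the epithelium was addressed by comparing *Cebpb*ΔM with WT MECs. *Rspo1*, *Lgr6* and *Lgr5* were higher in both *Cebpb*ΔM libraries than in both WT libraries and *Rnf43* was lower, but no member passed the test. Of the 6 members tested, 4 had no overlap between the genotypes, against 28.2% of all genes tested, and with 2 libraries per genotype an exact permutation test cannot give a two-sided P below 0.333. *Rspo1* had a log2 fold change of 1.0 (SE 0.276, 95% confidence interval 0.39 to 1.61), a ratio of 2.003, with an adjusted P = 0.291 in edgeR's quasi-likelihood (QL) test after Benjamini-Hochberg (BH) correction. *Lgr6* had a log2 fold change of 0.79 (SE 0.204, interval 0.34 to 1.24, adjusted P = 0.255), or 1.73-fold. By QL P, *Lgr6* was number 160 and *Rspo1* number 212 of 15698 genes. None of the 6 members was called at an adjusted P of 0.05 or less, whereas 0.051% of all genes tested were, and 2 members had an unadjusted P under 0.05 against 851 of all genes. Over all alternatives the adjusted P was between 0.0513 and 1 for *Lgr6* and between 0.105 and 1 for *Rspo1*, and 0 members were called by edgeR's likelihood ratio test or by DESeq2.

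The other 4 members moved less in MECs. *Rnf43* had a log2 fold change of −0.61 (SE 0.292, adjusted P = 0.988), *Lgr5* of 0.32 (SE 0.251), *Znrf3* of 0.16 (SE 0.229) and *Lgr4* of −0.09 (SE 0.202), with adjusted P = 0.9997 for the last 3 (QL test with BH adjustment). The 95% intervals ran from −1.25 to 0.04 for *Rnf43*, from −0.24 to 0.87 for *Lgr5*, from −0.35 to 0.66 for *Znrf3* and from −0.54 to 0.35 for *Lgr4*. The ligases therefore lay on opposite sides of 0, and their intervals overlapped. Fewer cells of a type and less RNA per cell cannot be told apart in these bulk libraries. The 10 basal markers summed to 8095 and 6558 CPM in *Cebpb*ΔM MECs and to 8169 and 6814 CPM in WT. The 10 markers of hormone-sensing luminal cells summed to 4185 and 4279 CPM in *Cebpb*ΔM and to 3840 and 4536 CPM in WT. Both sums overlapped between the genotypes, but single markers varied. Basal markers had log2 fold changes from −0.44 to 1.46, 4 positive and 6 negative, 1 with an unadjusted P under 0.05 (QL test). Hormone-sensing markers had values from −1.38 to 0.98, 5 positive and 5 negative, 2 with an unadjusted P under 0.05. The 10 luminal progenitor markers summed to 2143 and 1258 CPM in *Cebpb*ΔM MECs and to 1943 and 1841 CPM in WT, and the 10 endothelial markers to 153 and 176 CPM and to 207 and 157 CPM. In each of these lists 9 of 10 markers had a negative log2 fold change, with medians of −0.17 and −0.10, 3 luminal progenitor and 0 endothelial markers had an unadjusted P under 0.05, and none was called. The part of these cells in the values of the module was not tested.

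The make-up of the Lgr family was read within each library, which needs no scaling between libraries. *Lgr6* was 35.5% and 35.8% of the summed *Lgr4*, *Lgr5* and *Lgr6* level per length in WT MECs and 49.8% and 49.9% in *Cebpb*ΔM MECs. The ratio of *Lgr6* to *Lgr4* counts was 0.701 and 0.7103 in WT MECs and 1.31 and 1.29 in *Cebpb*ΔM MECs. *Lgr5* kept between 5.27% and 5.96% of the summed level in the 4 MEC libraries. In macrophage libraries the *Lgr6* to *Lgr4* ratio was 0.582 and 0.546 in WT and 1.28, 1.18, 0.401 and 0.547 in *Cebpb*ΔM 4 to 7, so that *Cebpb*ΔM 4 and 5 were near *Cebpb*ΔM MECs and *Cebpb*ΔM 6 and 7 at or below WT. The ratio of *Rnf43* to *Znrf3* counts, within the ligases, was 0.681 and 0.412 in WT MECs and 0.280 and 0.348 in *Cebpb*ΔM MECs, and it overlapped between the macrophage genotypes.

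**Figure D2:**
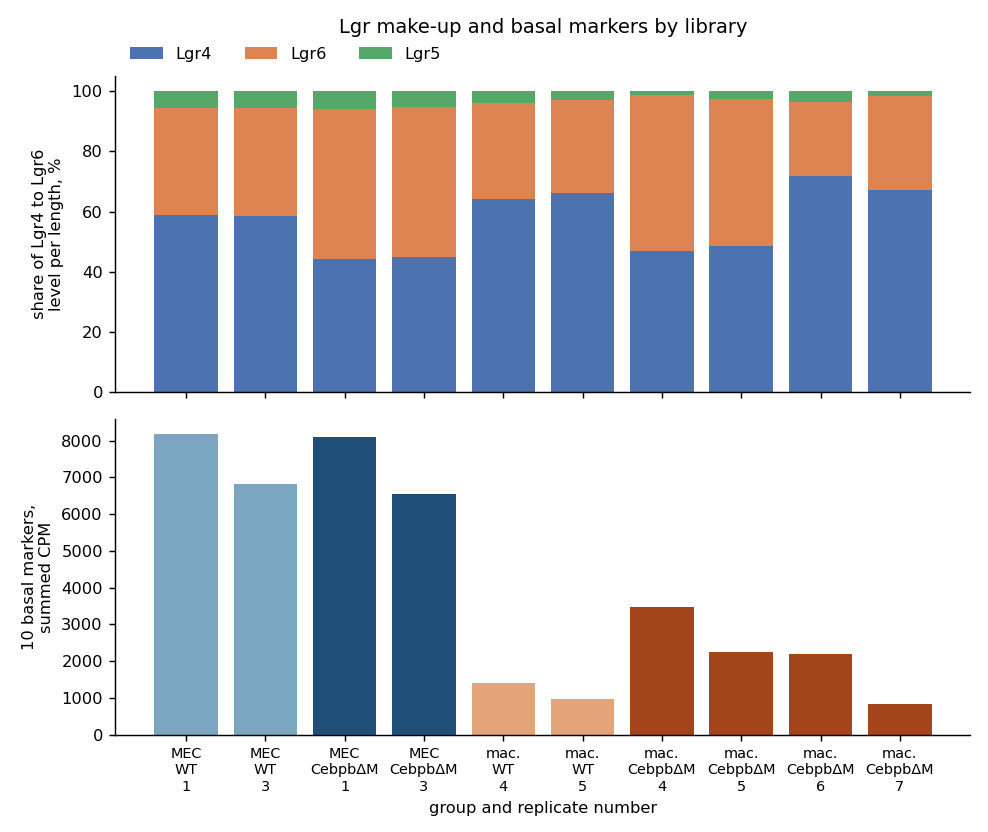
Top, share of Lgr4, Lgr6 and Lgr5 in their summed level per exon length (percent) in each of the 10 libraries; bottom, summed CPM of the 10 basal markers in the same libraries, ordered by group and replicate number. Lgr6 takes 49.8% and 49.9% in CebpbΔM MECs against 35.5% and 35.8% in WT, and 51.8% and 49.1% in CebpbΔM macrophage libraries 4 and 5 against 24.7% and 31.5% in 6 and 7.

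The same genotypes were compared in the macrophage libraries. *Lgr6* and *Rspo1* had the largest mean differences. That of *Rspo1* rested on *Cebpb*ΔM library 4 and that of *Lgr6* on *Cebpb*ΔM libraries 4 and 5. Genotypes of all 6 tested members overlapped, whereas 18.5% of all genes tested had no overlap. No member was called by the QL test, and 0 of 17772 genes (0.0%) were, with 1534 genes at an unadjusted P under 0.05. DESeq2 called 201 genes and the likelihood ratio test 138, of which 0 were members. *Lgr6* had a log2 fold change of 1.13 (SE 0.723, interval −0.54 to 2.79, adjusted P = 0.714) and *Rspo1* of 0.95 (SE 0.735, interval −0.74 to 2.64, adjusted P = 0.779). Without *Cebpb*ΔM library 4 the log2 fold change of *Lgr6* was 0.48 and that of *Rspo1* 0.06. With libraries 4 and 5 of both genotypes alone they were 1.86 and 1.56. *Lgr4* had a log2 fold change of 0.35 (SE 0.328, interval −0.40 to 1.11), and *Lgr5* (−0.16, SE 0.528), *Znrf3* (−0.07, SE 0.312) and *Rnf43* (−0.09, SE 0.456) were within 1 SE of 0.

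**Figure D3:**
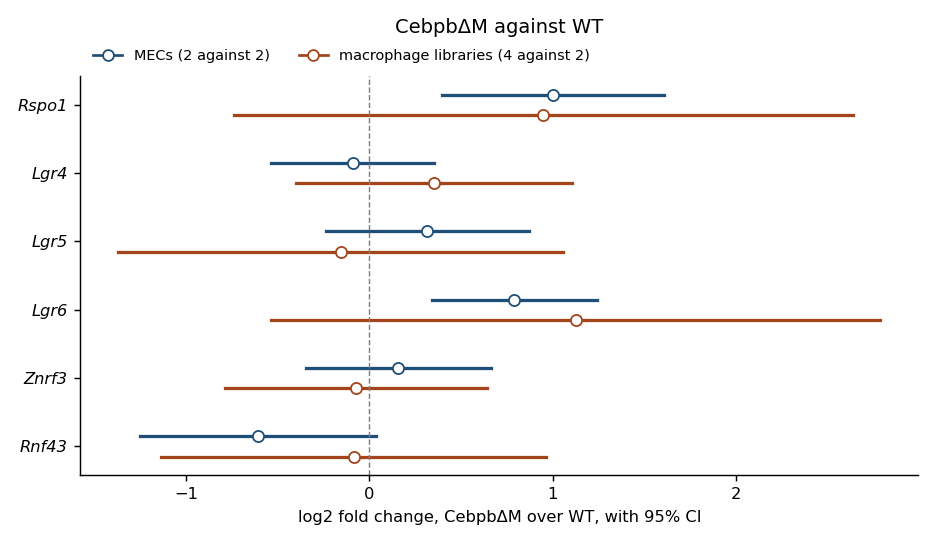
Log2 fold change of CebpbΔM over WT (horizontal axis) of the 6 members above the count filter, in MECs and in macrophage libraries, with 95% confidence intervals from the QL fits; open circles mark an adjusted P above 0.05. The MEC intervals of Rspo1 (0.39 to 1.61) and Lgr6 (0.34 to 1.24) lie above 0 before adjustment, and no point is filled.

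Markers of other cells moved across the same macrophage libraries. The 10 basal markers summed to 3471, 2245, 2192 and 842 CPM in *Cebpb*ΔM 4 to 7 and to 1402 and 964 CPM in WT. All 10 had a positive log2 fold change (median 0.91), 8 of them were highest in *Cebpb*ΔM 4, and none was called. *Cebpb*ΔM 4 was thus the highest of the 6 in *Rspo1*, *Lgr4*, *Lgr6*, *Znrf3* and *Rnf43* and in most basal markers, whereas *Cebpb*ΔM 6, with a basal sum close to that of *Cebpb*ΔM 5, had the lowest *Rspo1*, *Lgr6* and *Rnf43* of the 6. The 10 markers of hormone-sensing luminal cells summed to 943, 1094, 1692 and 2401 CPM in *Cebpb*ΔM 4 to 7, lowest in *Cebpb*ΔM 4. In WT they summed to 2264 and 2478 CPM. Of these markers 9 had a negative and 1 a positive log2 fold change (median −0.55), and none was called. All 10 pan-epithelial markers had a negative log2 fold change (median −0.70), 5 with an unadjusted P under 0.05 by the QL test. They summed to 6768, 5693, 5520 and 7015 CPM in *Cebpb*ΔM 4 to 7 and to 10430 and 10309 CPM in WT, without overlap. All 11 macrophage markers had a positive log2 fold change (median 0.58), 6 with an unadjusted P under 0.05. They summed to 6792, 7141, 9094 and 8718 CPM in *Cebpb*ΔM 4 to 7 and to 3796 and 5805 CPM in WT, without overlap. 0 of either list were called, as were 0 of all 17772 genes tested. The part of these cell types in the values of the module was not tested.

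The difference in genotype effect between macrophage libraries and MECs was estimated as an interaction in the fit of 10 libraries. It was −0.01 for *Rspo1* (95% interval −2.11 to 2.09), 0.38 for *Lgr6* (−1.63 to 2.39), 0.49 for *Lgr4* (−0.47 to 1.45), −0.43 for *Lgr5* (−1.75 to 0.89), −0.19 for *Znrf3* (−1.13 to 0.75) and 0.57 for *Rnf43* (−0.84 to 1.98), on the log2 scale. The adjusted P was 0.99996 for each member by the QL test with BH adjustment, and 0.0% of 18323 genes were called, with 951 at an unadjusted P under 0.05. The likelihood ratio test called 53 genes and DESeq2 27, with 0 members among either. The intervals span more than 1 unit on both sides of 0 for *Rspo1* and *Lgr6*, and hold both no difference and differences of that size in either direction.

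Which of the members mark MECs rather than macrophage libraries was addressed within each genotype. Cell type, isolation and library set changed together here and cannot be told apart. In WT, *Lgr5* was lower in macrophage libraries, at −1.93 (SE 0.467, interval −2.96 to −0.90, adjusted P = 0.0118), and *Lgr4* was lower, at −1.04 (SE 0.333, interval −1.77 to −0.31, adjusted P = 0.0413, QL test with BH adjustment). These 2 of the 6 tested members were called lower, against 10.7% of all 18323 genes tested. The call of *Lgr5* was lost without MEC WT 3 (adjusted P = 0.0638) or without macrophage WT 5 (adjusted P = 0.0884), and that of *Lgr4* was lost without MEC WT 1 or 3, MEC *Cebpb*ΔM 1 or 3, macrophage WT 4 or 5 or macrophage *Cebpb*ΔM 5, with an adjusted P of up to 0.185. *Lgr6*, at −1.36 (SE 0.702, adjusted P = 0.182), *Rspo1*, at −0.46 (SE 0.709), *Rnf43*, at −0.13 (SE 0.481), and *Znrf3*, at −0.07 (SE 0.323), did not pass. For comparison, the log2 fold changes of the 10 pan-epithelial markers had a median of −1.77 and those of the 10 basal markers a median of −1.86.

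In *Cebpb*ΔM, *Lgr5* was again lower in macrophage libraries, at −2.35 (SE 0.377, interval −3.18 to −1.52, adjusted P = 0.000708). It was the 1 member called, against 14.7% of all genes called lower, and its call was kept under all 14 alternatives. *Lgr6*, at −0.98 (SE 0.576, adjusted P = 0.217), *Lgr4*, at −0.55 (SE 0.280, adjusted P = 0.157), and *Rspo1*, at −0.47 (SE 0.593, adjusted P = 0.583), did not pass with all libraries. Without *Cebpb*ΔM macrophage library 4 all 3 were called lower by the QL test, as were 2821 of all 18095 genes tested. Their log2 fold changes were then −1.61 for *Lgr6* (adjusted P = 0.0195), −0.84 for *Lgr4* (adjusted P = 0.00726) and −1.35 for *Rspo1* (adjusted P = 0.0103). Library 4 held the highest level of each of the 3 among the macrophage libraries. *Znrf3*, at −0.26 (SE 0.277), and *Rnf43*, at 0.44 (SE 0.425), were not called with or without that library. The 2 comparisons use different libraries but 1 shared fit. Over all 10 libraries, *Lgr5* alone of the 6 members had no overlap between MECs and macrophage libraries, against 36.2% of all genes.

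**Figure D4:**
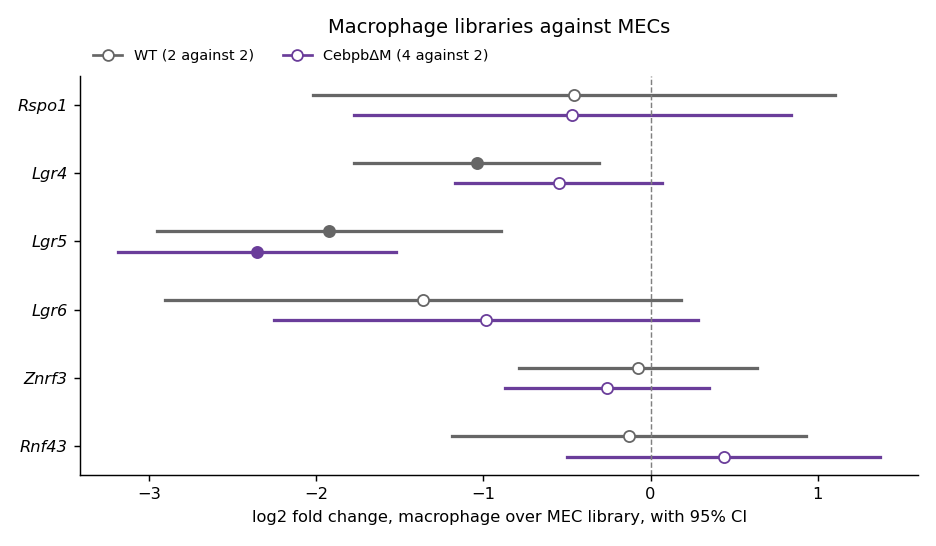
Log2 fold change of macrophage over MEC libraries (horizontal axis) of the 6 tested members within WT and within CebpbΔM, with 95% confidence intervals from 1 QL fit of all 10 libraries. Filled circles mark an adjusted P of 0.05 or less, which Lgr5 has in both genotypes (−1.93 and −2.35) and Lgr4 in WT (−1.04).

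Syndecans, proteoglycans that bind R-spondins, were also read between the cell types. The list of R-spondin partners was not limited to proteins that bind R-spondins and also held intracellular ones such as Nedd4l. Of its 12 genes, 4 were called lower in WT macrophage libraries than in WT MECs, against 10.7% of all genes. Only 1 was called higher, against 14.8%. *Sdc4* and *Sdc1*, heparan sulfate syndecans, were at 2997 and 3028 CPM and at 746 and 738 CPM in WT MECs and at 954 and 936 CPM and at 324 and 303 CPM in WT macrophage libraries, log2 fold changes of −1.67 (SE 0.184) and −1.24 (SE 0.193). *Sdc3* was called higher, at 15.2 and 14.1 CPM in WT MECs and at 64.6 and 116.6 CPM in WT macrophage libraries, a log2 fold change of 2.63 (SE 0.273). *Nedd4l*, a cytosolic E3 ligase, was at 278.7 and 308.2 CPM in WT MECs and at 90.3 and 132.8 CPM in WT macrophage libraries (−1.40, SE 0.231), and the fourth called lower was *Sdc2* (−0.80, SE 0.249), named here after its value was seen.

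The surrounding pathway was described by 5 lists of genes, and by the QL test 0 of their 52 genes tested in MECs and 0 of 54 in macrophage libraries were called, against 0.051% and 0.0% of all genes. The likelihood ratio test and DESeq2 each called 1 listed gene in MECs, *Nkd1*, and 0 in macrophage libraries. Of 18 Wnt/β-catenin target genes, 11 were tested in MECs, 7 with a positive and 4 with a negative log2 fold change, and the median was 0.08 against −0.01 over all genes tested. *Nkd1*, an inducible antagonist of the pathway, had the smallest P of the listed genes, at 9.26 and 5.77 CPM in WT MECs and 37.6 and 19.6 CPM in *Cebpb*ΔM MECs. Its log2 fold change was 1.94 (SE 0.350, adjusted P = 0.0878, QL test with BH adjustment). The call depended on the test and its settings. *Nkd1* was not called by the QL test with relative log expression scaling (adjusted P = 0.107) or in 1 fit of all 10 libraries. It was called by the likelihood ratio test (adjusted P = 0.00017) and by DESeq2 (7.09e-05). The QL test called it without the count filter (0.0403) and with the replicate block (0.000156). It was also called by the QL test without *Cebpb*ΔM 3 (adjusted P = 0.000292, log2 fold change 2.32) or without WT 1 (9.54e-05, 2.31), and not without *Cebpb*ΔM 1 (0.0522, 1.43) or without WT 3 (0.328, 1.66). *Tnfrsf19* (0.25, SE 0.267), *Procr* (−0.21, SE 0.251) and *Wif1* (0.20, SE 0.246), a secreted Wnt inhibitor, followed it.

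The Frizzled and Lrp receptors are what Znrf3 and Rnf43 remove from the membrane. Of 12 such receptor genes, 10 were tested in MECs, with a median log2 fold change of −0.11. *Fzd3* was at 14.0 and 12.3 CPM in WT MECs and at 20.7 and 18.5 CPM in *Cebpb*ΔM MECs, a log2 fold change of 0.60 (SE 0.250, adjusted P = 0.814). *Lrp5*, a co-receptor, was at −0.37 (SE 0.301), *Fzd5* at −0.21 (SE 0.3004) and *Fzd1* at −0.18 (SE 0.294). All 12 genes of β-catenin turnover were tested, with a median of −0.07, and their smallest P belonged to *Csnk1a1*, the kinase that primes β-catenin, at 0.43 (SE 0.263), and to *Ctnnb1*, which encodes β-catenin, at 0.32 (SE 0.204).

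All 12 genes on the list of R-spondin partners, among them the syndecans that bind R-spondins through heparan sulfate, were tested in MECs. Their median was −0.05, and *Sdc3* had the smallest P at 0.42 (SE 0.248). Of 13 paralogs of the Lgr receptors and of the ligases, 7 were tested, with a median of 0.23. *Rnf128*, another transmembrane E3 ligase, was at 18.4 and 39.6 CPM in WT MECs and at 61.3 and 45.0 CPM in *Cebpb*ΔM MECs, a log2 fold change of 0.89 (SE 0.33, adjusted P = 0.654). The 6 tested members of the module had a median of 0.24. These medians are descriptions and were not tested against other genes.

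In the macrophage libraries the medians were 0.02 for the target genes (12 tested), −0.08 for Frizzled and Lrp receptors (10 tested), −0.12 for β-catenin turnover, −0.13 for R-spondin partners and 0.17 for the paralogs (8 tested), and 0.14 for the 6 members. The smallest P was that of *Sdc1*, at 324 and 303 CPM in WT and 249, 239, 221 and 201 CPM in *Cebpb*ΔM 4 to 7, a log2 fold change of −0.49 (SE 0.152, adjusted P = 0.508). *Bmpr1a*, which encodes a BMP receptor, was at 33.8 and 33.7 CPM in WT and between 23.6 and 26.5 CPM in *Cebpb*ΔM, a log2 fold change of −0.44 (SE 0.169, adjusted P = 0.537). *Fzd1* was at −0.81 (SE 0.380) and *Lrp6* at −0.39 (SE 0.195). *Nkd1* was at 11.99 and 6.14 CPM in WT and at 24.5, 14.0, 9.17 and 8.35 CPM in *Cebpb*ΔM 4 to 7, highest in the same library as *Rspo1* and *Lgr6*, with a log2 fold change of 0.60 (SE 0.496).

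**Figure D5:**
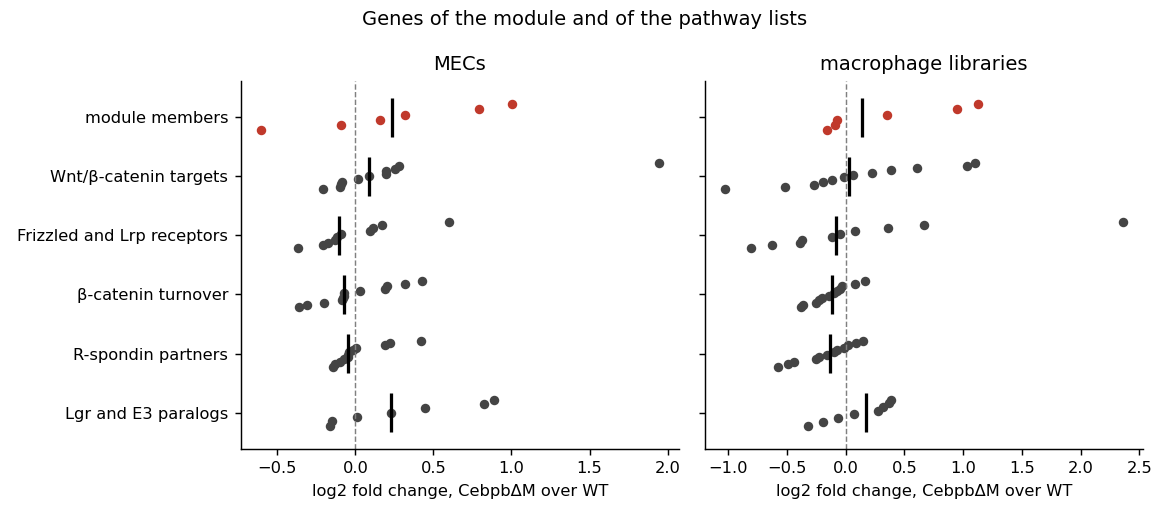
Log2 fold change of CebpbΔM over WT of every tested gene of the module (red) and of the 5 pathway lists (black) in MECs and in macrophage libraries; each point is 1 gene and each bar the median of its list. The highest point in MECs is Nkd1 at 1.94, the lowest member is Rnf43 at −0.61, and no gene shown has an adjusted P of 0.05 or less by the QL test, whereas Nkd1 is called in MECs by the likelihood ratio test and DESeq2.

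The genes whose log2 CPM followed each member most closely over the 10 libraries were found by Pearson's r, as a description. The 10 points share their cell type, isolation and library set in 2 blocks of 4 and 6 libraries, and the part of these blocks in each r was not tested. For *Rspo1* they were *Gm266* (r = 0.951) and *Nol9* (0.950), for *Lgr6* *Adamts17* (0.967), which encodes a secreted protease, and *Nap1l1* (0.955), and for *Lgr4* *Gm47341* (0.973) and *Bclaf1* (0.962). For *Lgr5* they were *Psmb6-ps2* (0.994), a pseudogene whose reads may be shared with its parent gene, and *Nipal1* (0.982). For *Znrf3* they were *Gmps* (0.926) and *Kremen1* (0.919), a receptor of Dkk proteins, and for *Rnf43* *Iqgap3* (0.946) and *Nusap1* (0.936), which encodes a mitotic spindle protein.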

How the data were processed

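MECs and F4/80-selected macrophages of WT and *Cebpb*ΔM mice were profiled by low-input RNA sequencing, 10 libraries in all. The authors trimmed reads with Trimmomatic, aligned them to GRCm38 with HISAT2 and counted read pairs on Ensembl release 100 genes with featureCounts (version 1.6.2), requiring both mates, mapping quality 10 or more and the reverse-strand setting. Whether the library kit marks strand is not given in the sources used here. The deposited values are raw counts per gene, and all sample columns were used. Symbols matched 55141 of 55487 genes.

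From these counts, genes shorter than 300 nt (8951) and then those not above 1 CPM in at least 2 libraries of a fit were removed, which left 15698 genes in MECs, 17772 in macrophages and 18323 over all libraries. *Cebpb*ΔM and WT were compared within each cell type, and cell types and the interaction in 1 fit of all 4 groups, by the QL test of edgeR (version 4.0.16, R version 4.3.3) with TMM and BH adjustment at 0.05. The study names edgeR's likelihood ratio test, which was run as an alternative with DESeq2 (version 1.42.0), relative log expression (RLE) scaling, no count filter, a replicate block, all libraries in 1 fit, libraries 4 and 5 alone and each library left out. Scripts were tested on simulated counts. Standard errors and intervals belong to log2 fold changes, and levels per library carry counting error only beyond the replicate SD. Log2 CPM used a prior count of 2. Promoter sequences are from RefSeq on GRCm38.p6. Tables used pandas (version 2.3.3) and plots matplotlib (version 3.10.9).

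The members and lists were chosen with earlier results of these data known. Named genes are all members, *Cebpb*, up to 4 genes of each pathway list with the smallest P in a genotype comparison and, for each member of at least 1 CPM, the 2 genes with the highest Pearson r.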

Additional observations from a re-analysis of the deposited data

Results flagged for a closer look

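3 values stood apart from the other 3 *Cebpb*ΔM macrophage libraries by Dixon's criterion, in which the gap to the nearest library over the range of the group exceeds the critical value at 95%. *Rspo1* was at 21.5 CPM in library 4 (gap over range 0.846), the highest value of any library. *Rspo2* was at 0.901 CPM (15 counts) in library 7 (0.892) and *Rspo3* at 1.62 CPM (27 counts) in the same library, where the gap was the whole range, since the other 3 libraries had 0 counts of *Rspo3*. Chance flags about 1 in 20 such groups where values are normally distributed. That rate does not hold for groups mostly at 0 counts, such as those of *Rspo2* and *Rspo3*. The 9 genes examined were *Cebpb* and all members except *Rspo4*, which had 0 counts in this group. Groups of 2 libraries could not be examined in this way.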

How the results depend on the processing

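The number of genes called depended strongly on the test, and the members called did so less. In MECs 8 genes were called, and 179 with the likelihood ratio test, 161 with DESeq2, 38 without the count filter, 205 with the replicate block, 0 in 1 fit of all 10 libraries and between 2 and 337 with 1 library left out. In macrophage libraries 0 were called, and 138 with the likelihood ratio test, 201 with DESeq2 and 12 with the block. The interaction called 0 genes, and 53 with the likelihood ratio test, 27 with DESeq2, 1 with the block and between 0 and 1 with 1 library left out. Between cell types, leaving out 1 library gave 2456 to 4846 genes and 0 to 2 members in WT, and 3496 to 6556 genes and 1 to 4 members in *Cebpb*ΔM. 0 members were called in either genotype comparison or the interaction under any alternative run.

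Signs near 0 turned. In the macrophage libraries the block and the setting with libraries 4 and 5 alone compare the same libraries, so their agreement is not a second check. With the block, and with libraries 4 and 5 alone, the macrophage genotype values were 0.22 and 0.22 for *Lgr5*, 0.27 and 0.28 for *Znrf3* and 0.39 and 0.39 for *Rnf43*, and with 1 library left out they spanned −0.41 to 0.15 (*Lgr5*), −0.23 to 0.089 (*Znrf3*) and −0.44 to 0.27 (*Rnf43*). *Lgr4* in MECs ranged from −0.17 to 0.010. WT macrophage over MEC values ranged from −0.18 to 0.11 for *Znrf3* and from −0.45 to 0.20 for *Rnf43*. The interaction with the block was 0.31 for *Rspo1* and 0.16 for *Znrf3*, and with 1 library left out it ranged from −0.93 to 0.28 for *Rspo1* and from −0.29 to 0.68 for *Lgr6*. The causes were not tested.

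The labels give MEC libraries 1 and 3 and macrophage libraries 4 and 5 the same numbers in both genotypes without saying what a number shares. Deviations from the group mean correlated across genes at 0.106 in MECs and at 0.129 and −0.0865 in macrophages. The block brought the adjusted P for *Lgr6* (QL test) to 0.0513 in MECs and to 0.0602 in macrophage libraries (log2 fold change 1.8). The macrophage value compares libraries 4 and 5 of both genotypes only, since *Cebpb*ΔM 6 and 7 share no number with a WT library. *Lgr6* in *Cebpb*ΔM 6 and 7 was at 16.2 and 20.6 CPM, below both WT libraries. With 2 libraries in 3 of the 4 groups, the intervals given are wide. Differences between genotypes smaller than the distance from an estimate to its interval limit could not be told from 0, even before adjustment. *Rspo2*, *Rspo3* and *Rspo4* did not pass the count filter, nor did *Cebpb* in the macrophage genotype comparison. In MECs *Cebpb* was tested, with a log2 fold change of 1.06 (SE 0.468, adjusted P = 0.889, QL test with BH adjustment).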
